A study of Homo sapiens with 12 samples.

Results

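The 10 genes described here encode the AP-1 proteins of the Fos and Jun families and 3 zinc finger proteins of the EGR family: FOS, FOSB, FOSL1, FOSL2, JUN, JUNB, JUND, EGR1, EGR2 and EGR3. They were taken by gene symbol from a table of 55771 genes, and each had 1 row. The table covers 12 RNA-seq libraries from KELLY cells, an established human neuroblastoma line, in 3 groups of 4. One group received the oligonucleotide BPS1, another BPS2, and the third a control oligonucleotide. Each was a morpholino, an uncharged DNA analogue that pairs with RNA, carried on a DNA leash in a lipid complex. All 3 groups, control included, had the same serum change from 10% to 4% after 24 h, the same 50 nM of complex and lysis 48 h later, so no library shows untransfected cells. The series text asks what accompanies a rise of the long NEAT1 transcript, the scaffold of paraspeckles. In the single NEAT1 row the mean normalized count was 2024 ± 420 with BPS1, 4262 ± 412 with BPS2 and 6879 ± 264 with control (SD, n = 4 each), and this row does not separate the short transcript from the long one. It fell with BPS1 (limma adjusted p = 6e-06) and with BPS2 (adjusted p = 0.0239).

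Immediate early genes are transcribed within minutes of a stimulus, from transcription factors that are already present and without new protein. Growth factors, calcium entry, stress and serum reach them through MAP kinases, which act on serum response factor with its ternary complex partners and on CREB. Fos proteins bind DNA only as dimers, mostly with a Jun protein, whereas Jun proteins also pair with each other, and the dimer on its site is AP-1. EGR proteins bind GC-rich sites as monomers and are held in check by the NAB co-repressors. In cells of neuronal origin the same genes follow membrane activity and growth factors, and FOS and EGR1 messages are short-lived.

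Part of the sequence through which these signals act lies upstream of the start site. The 5 genes on which the results below turn are therefore shown with 250 bases before their RefSeq start. The windows are from GRCh38.p14, run 5′ to 3′ on the gene's strand, and cover chr14:75278578-75278827 on the plus strand for FOS, chr1:58784048-58784297 on the minus strand for JUN, chr19:12791236-12791485 on the plus strand for JUNB, chr19:18281623-18281872 on the minus strand for JUND and chr5:138465229-138465478 on the plus strand for EGR1. Capitals mark matches to 5 motifs searched on both strands: the CArG box of serum response factor, the cAMP response element TGACGTCA, the AP-1 site (TGACTCA or TGAGTCA), the EGR site GCGNGGGCG and the TATA box TATAAA.
FOS: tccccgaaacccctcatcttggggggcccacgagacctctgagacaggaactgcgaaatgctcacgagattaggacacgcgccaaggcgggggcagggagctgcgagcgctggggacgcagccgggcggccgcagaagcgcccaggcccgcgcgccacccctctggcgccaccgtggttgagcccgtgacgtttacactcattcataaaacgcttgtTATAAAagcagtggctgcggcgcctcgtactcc
JUN: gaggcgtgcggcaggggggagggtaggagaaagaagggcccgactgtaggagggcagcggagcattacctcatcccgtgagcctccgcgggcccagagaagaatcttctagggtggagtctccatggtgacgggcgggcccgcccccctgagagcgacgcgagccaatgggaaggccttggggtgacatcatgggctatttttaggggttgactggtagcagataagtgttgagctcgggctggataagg
JUNB: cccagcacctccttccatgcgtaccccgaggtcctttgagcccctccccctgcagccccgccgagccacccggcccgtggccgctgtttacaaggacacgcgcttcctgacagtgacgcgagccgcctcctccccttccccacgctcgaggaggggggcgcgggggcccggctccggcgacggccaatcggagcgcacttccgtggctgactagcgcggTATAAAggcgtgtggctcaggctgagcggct
JUND: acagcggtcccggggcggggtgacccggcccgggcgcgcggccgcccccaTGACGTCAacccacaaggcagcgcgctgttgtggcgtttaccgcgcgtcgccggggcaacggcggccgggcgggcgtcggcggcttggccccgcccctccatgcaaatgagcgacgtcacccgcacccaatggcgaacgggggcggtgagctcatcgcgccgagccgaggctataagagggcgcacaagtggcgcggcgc
EGR1: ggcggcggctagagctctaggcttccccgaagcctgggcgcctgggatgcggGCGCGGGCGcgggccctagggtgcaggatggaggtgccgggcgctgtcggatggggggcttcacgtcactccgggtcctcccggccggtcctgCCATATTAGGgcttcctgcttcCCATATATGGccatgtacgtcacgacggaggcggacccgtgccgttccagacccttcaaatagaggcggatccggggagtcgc
EGR1 held 2 CArG boxes, CCATATTAGG at −105 to −96 and CCATATATGG at −83 to −74, counting the start as 0, and one EGR site at −198 to −190. Of 35116 RefSeq windows of 300 bases, from 250 bases before the start to 50 after it, 1.29% held a CArG box and 0.0313% held 2 or more. An EGR site stood in 9.43% of the windows. FOS and JUNB held a TATA box, at −33 to −28 and at −31 to −26, as did 11.5% of windows. JUND held a cAMP response element at −200 to −193, a motif in 1.85% of windows. Among the other members, FOSB held a TATA box at −30 to −25 and FOSL2 an AP-1 site at 4 to 10, a motif in 4.95% of windows. EGR2 has 3 windows, one with a CArG box at −71 to −62 and another with an EGR site at 8 to 16. These are matches of letters, and the searched letters were not in the JUN window. Sites in variant letters or farther upstream were not searched for. A window without a match therefore does not mean a gene without such a site. Of the 10 members, 8 had a RefSeq window.

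The normalized counts of a library summed to 29.6 to 33.3 M, which at the value of 1 read comes to about 29.1 to 31.8 M reads. All 7 markers of adrenergic neuroblastoma used were present (PHOX2A, HAND2, GATA3, ISL1, DBH, TH and MYCN), with summed levels of 117173 to 144382 with BPS1, 135563 to 144277 with BPS2 and 140676 to 160135 with control. The 5 leukocyte markers summed to at most 41.6 in any library. BPS1 replicate 4 stood apart: the SD over genes of its deviation from the gene's median was 0.594 on the log2 scale. It was 0.471 in control replicate 1 and 0.377 to 0.425 in the other 10 libraries. The deviation of BPS1 replicate 4 rose with transcript GC content (Spearman's rho across genes 0.332, against −0.213 to 0.181 in the other libraries). This rho was 0.114 to 0.181 in BPS2 replicates 2 to 4 and −0.213 to −0.129 in control replicates 2 to 4. It was −0.127 in BPS2 replicate 1 and 0.178 in control replicate 1. Since no label says that the 4 libraries of a group are separate cultures, the p-values speak only for the scatter among libraries, which could be technical.

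FOS, JUN and EGR1 were the members that rose. They were called higher with BPS1, JUN and EGR1 were also called higher with BPS2, and FOS with BPS2 was of the same size but just missed the threshold. Differences are on the log2(normalized count + 1) scale, from one limma fit of the 20454 genes with a normalized count of at least 10 in at least 4 libraries, and a call is a Benjamini-Hochberg adjusted p under 0.05 over all of them. FOSL1 and EGR2 were under that filter, which left 8 members tested. With BPS1 3 of the 8 were called higher and none lower, where 8.6% of all genes tested were called, 4.29% as higher and 4.32% as lower. With BPS2 2 of the 8 were called higher and none lower, where 1.21% of genes were called, 0.821% as higher and 0.386% as lower. The median fold change of the 8 was 0.47 with BPS1 and 0.57 with BPS2 on the log2 scale, beside a median of 0 over all genes in both. Without BPS1 replicate 4 and control replicate 1 the same 3 members were called with BPS1, and FOS, JUN, JUNB, JUND and EGR1 were called with BPS2. In that fit 6.34% of genes were called higher with BPS1 and 5.63% with BPS2.

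**Figure D1:**
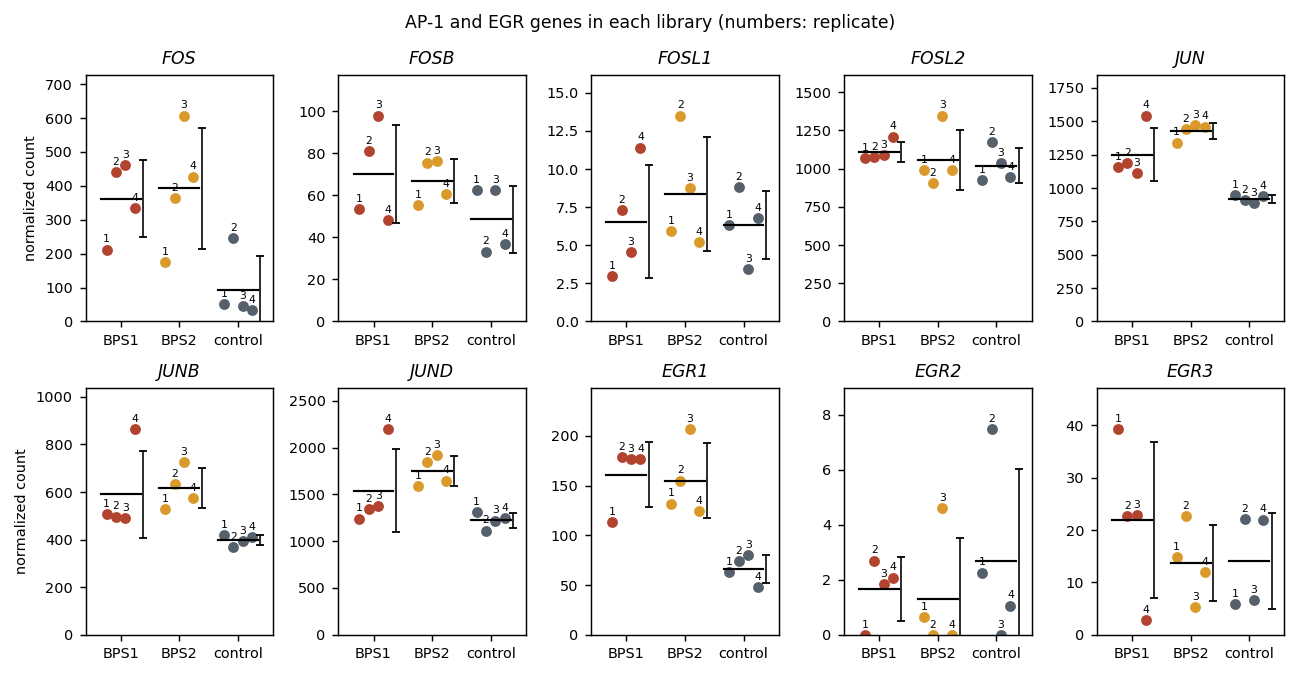
Normalized count of the 10 genes in each of the 12 libraries (vertical axes, linear from 0; points numbered by replicate), with the mean as a horizontal line and ± 1 SD as a bar beside it (n = 4, cut at 0). All 4 BPS1 and all 4 BPS2 points of JUN and of EGR1 lie above all 4 control points, and in FOS control replicate 2 lies at 245, apart from the other 3 control libraries.

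FOS, the Fos protein that pairs with Jun to form classical AP-1, showed the largest differences of any member. Its normalized count was 212, 440, 461 and 335 in BPS1 replicates 1 to 4, then 174, 363, 607 and 427 in BPS2 replicates 1 to 4, against 51.7, 245, 44.8 and 32.9 in control replicates 1 to 4. Control replicate 2 was the only control library within the range of the oligonucleotide groups. It exceeded BPS1 replicate 1 and BPS2 replicate 1, so the groups overlapped. The means were 362 ± 114 with BPS1, 393 ± 179 with BPS2 and 93.5 ± 101 with control (SD, n = 4), and the control median was 48.3. The log2 fold change was 2.38 ± 0.54 (SE) with BPS1, with a 95% interval of 1.21 to 3.55 (limma adjusted p = 0.0163). With BPS2 it was 2.42 ± 0.54, with an interval of 1.25 to 3.59 (limma adjusted p = 0.0513). The exact two-sided permutation test gave p = 0.0571 for each oligonucleotide, where the smallest p that 4 against 4 allows is 0.0286. Without control replicate 2 the fold changes were 3.00 and 3.05 and both were called (limma adjusted p = 0.000923 and 0.00443). The BPS1 call was lost without BPS1 replicate 3 (adjusted p = 0.051) or control replicate 3 (0.0521). FOS with BPS2 was called without BPS1 replicate 4 (0.0392) or BPS2 replicate 1 (0.0422), and its adjusted p went up to 0.178 without BPS2 replicate 3. In bulk RNA, more cells with FOS message and more message per cell cannot be told apart. FOS (ENSG00000170345) spans chr14:75278774-75282230 on the plus strand of GRCh38.

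The spread of FOS was itself wide. Its SD on the log2 scale in control was 1.28, and 98.8% of genes tested had a lower one. JUN lay at the other end, with a control SD of 0.0437 and only 2.65% of genes lower.

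The other 3 Fos genes passed in neither comparison. FOSB, a close relative of FOS that neurons induce with activity, had means of 70.1 ± 23.4 with BPS1, 66.9 ± 10.5 with BPS2 and 48.6 ± 15.9 with control (SD, n = 4). Its log2 fold changes were 0.52 ± 0.26 and 0.50 ± 0.26 (limma adjusted p = 0.275 and 0.518), and all 3 groups overlapped. FOSL2, a Fos protein without the strong activation domain of FOS, had means of 1110 ± 67 with BPS1, 1057 ± 196 with BPS2 and 1019 ± 115 with control. Its differences were 0.13 ± 0.12 and 0.04 ± 0.12 (limma adjusted p = 0.584 and 0.934), with 95% intervals of −0.13 to 0.39 and −0.21 to 0.30. Both intervals lie below those of FOS. FOSL1, which many carcinomas express highly, was low here, at 6.55 ± 3.70 with BPS1, 8.35 ± 3.76 with BPS2 and 6.35 ± 2.22 with control. Its exact permutation p was 0.971 for BPS1 and 0.486 for BPS2.

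FOS had a larger mean share of the Fos family's message with either oligonucleotide, a share for which no test was run. Per kb of the longest transcript, FOS was 46.2% ± 7.99 of the 4 Fos genes with BPS1, 48.3% ± 10.6 with BPS2 and 17.6% ± 13.4 with control (SD, n = 4). FOSL2 was 47.5% ± 8.58, 45.2% ± 9.82 and 74.0% ± 11.2 in the same 3 groups. The FOS share ran from 36.0 to 52.9% with BPS1, from 32.7 to 55.5% with BPS2 and from 8.98 to 37.5% with control, so the groups overlapped at their edges. Within the Jun family JUND was 54.8% ± 1.81 with BPS1, 55.9% ± 0.8 with BPS2 and 57.8% ± 0.9 with control. Its share ran from 52.4 to 56.5% with BPS1, from 54.8 to 56.8% with BPS2 and from 56.6 to 58.6% with control, so BPS1 and control did not overlap. JUNB was 21.4% ± 1.13, 20.1% ± 1.09 and 19.3% ± 0.149 in the same 3 groups, and ran from 20.3 to 22.7% with BPS1, from 19.1 to 21.6% with BPS2 and from 19.1 to 19.5% with control. No test was run on these shares either.

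JUN, the main Jun partner of FOS, rose with both oligonucleotides. Its normalized count was 1157, 1186, 1114 and 1542 in BPS1 replicates 1 to 4, and 1340, 1439, 1474 and 1460 in BPS2 replicates 1 to 4, against 944, 907, 886 and 940 in control replicates 1 to 4. Every BPS1 and BPS2 library exceeded every control library. The means were 1250 ± 197 with BPS1, 1428 ± 60.5 with BPS2 and 919 ± 27.7 with control (SD, n = 4). The log2 fold change was 0.43 ± 0.10 with BPS1 (limma adjusted p = 0.0142) and 0.64 ± 0.10 with BPS2 (adjusted p = 0.00561), and the exact permutation p was 0.0286 for each. The BPS1 call held in all 12 omissions of a single library (adjusted p at most 0.045), but a fit of BPS1 and control alone gave an adjusted p of 0.0611. Without BPS1 replicate 4 the BPS1 difference was 0.33 (adjusted p = 0.00564). The row is in whole reads in all 12 libraries, 1145 to 1411 with BPS1, 1353 to 1462 with BPS2 and 897 to 928 with control, so counting error is small beside the differences. JUN (ENSG00000177606) is an intronless gene at chr1:58780788-58784327 on the minus strand.

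JUNB and JUND lay higher with both oligonucleotides but did not pass in the fit of all libraries. JUNB, a Jun protein that is also induced by growth signals, had 507, 497, 489 and 865 in BPS1 replicates 1 to 4, and 528, 634, 726 and 575 in BPS2 replicates 1 to 4, against 418, 368, 395 and 412 in control replicates 1 to 4. All oligonucleotide libraries exceeded all control libraries, and BPS1 replicate 4 stood well above the other BPS1 libraries. The log2 fold change was 0.52 ± 0.17 with BPS1 (limma adjusted p = 0.0738) and 0.62 ± 0.17 with BPS2 (adjusted p = 0.118), with an exact permutation p of 0.0286 for each. Without BPS1 replicate 4 they were 0.32 (limma adjusted p = 0.0633) and 0.62 (adjusted p = 0.00436). With each library's GC trend removed, both were called, at 0.43 (adjusted p = 0.0253) and 0.55 (adjusted p = 0.025). JUNB (ENSG00000171223) lies at chr19:12791496-12793315 on the plus strand.

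JUND, the Jun protein that many resting cells express, had 1242, 1347, 1375 and 2200 in BPS1 replicates 1 to 4, and 1588, 1847, 1921 and 1648 in BPS2 replicates 1 to 4, against 1308, 1113, 1220 and 1251 in control replicates 1 to 4. The BPS2 libraries exceeded all control libraries, while BPS1 replicate 1 lay below control replicate 1. The log2 fold change was 0.30 ± 0.15 with BPS1 (limma adjusted p = 0.267) and 0.52 ± 0.15 with BPS2 (adjusted p = 0.157). Without BPS1 replicate 4 they were 0.11 (limma adjusted p = 0.443) and 0.52 (adjusted p = 0.00377). JUND with BPS2 was also called with the GC trend removed, at 0.41 (adjusted p = 0.0231). The transcript GC content of JUND was 69.7%, that of JUNB 64.9% and that of JUN 56.7%. BPS1 replicate 4, whose values rose most with GC content, was the highest BPS1 library in all 3 Jun genes, and the part of GC content in these values was not tested beyond that correction. JUND (ENSG00000130522) lies at chr19:18279760-18281622 on the minus strand.

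EGR1, the zinc finger factor that serum response factor drives in many cell types, rose with both oligonucleotides. Its normalized count was 113, 179, 177 and 177 in BPS1 replicates 1 to 4, and 132, 155, 207 and 124 in BPS2 replicates 1 to 4, against 63.1, 73.8, 80.2 and 48.2 in control replicates 1 to 4. No oligonucleotide library came down to the highest control library. The means were 161 ± 32.5 with BPS1, 155 ± 37.5 with BPS2 and 66.3 ± 14.0 with control (SD, n = 4), a ratio of 2.43 for BPS1 and 2.33 for BPS2. The log2 fold change was 1.27 ± 0.21 with BPS1 (limma adjusted p = 0.00256) and 1.21 ± 0.21 with BPS2 (adjusted p = 0.0141), with an exact permutation p of 0.0286 for each. The BPS1 call held in all 12 omissions, and the BPS2 call was lost without BPS2 replicate 3, at 1.06 (limma adjusted p = 0.0506). The row is in whole reads, 119 to 190 with BPS1, 122 to 200 with BPS2 and 46 to 82 with control. The lowest BPS1 library had 119 reads, with a 95% exact Poisson interval of 98.6 to 142, and the highest control library had 82 reads, with an interval of 65.2 to 102. These intervals cover counting error only, since amplification makes several reads of 1 molecule possible. EGR1 (ENSG00000120738) spans chr5:138465490-138469315 on the plus strand, and its pair of CArG boxes is in the window shown above.

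The other EGR genes were low. EGR3, which EGR1-inducing signals often raise as well, had 39.3, 22.6, 22.8 and 2.82 in BPS1 replicates 1 to 4, and 14.8, 22.7, 5.35 and 12 in BPS2 replicates 1 to 4, against 5.78, 22.1, 6.65 and 22 in control replicates 1 to 4. The groups overlapped throughout, and the log2 fold changes were 0.41 ± 0.69 and 0.04 ± 0.69 (limma adjusted p = 0.781 and 0.991). The 95% interval for BPS1, −1.08 to 1.90, includes a difference as large as that of EGR1. Single omissions moved the BPS1 value from 0.00 without BPS1 replicate 1 to 1.14 without BPS1 replicate 4. EGR2, a regulator of myelination in Schwann cells, was at most 7.49 in any library and was listed at 0 in 4. Its exact permutation p was 0.886 for BPS1 and 0.486 for BPS2. Groups that did not overlap, with the oligonucleotide higher, were found for JUN, JUNB and EGR1 with BPS1, where 7.5% of genes tested did so. With BPS2 they were found for JUN, JUNB, JUND and EGR1, where 5.41% of genes did so.

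**Figure D2:**
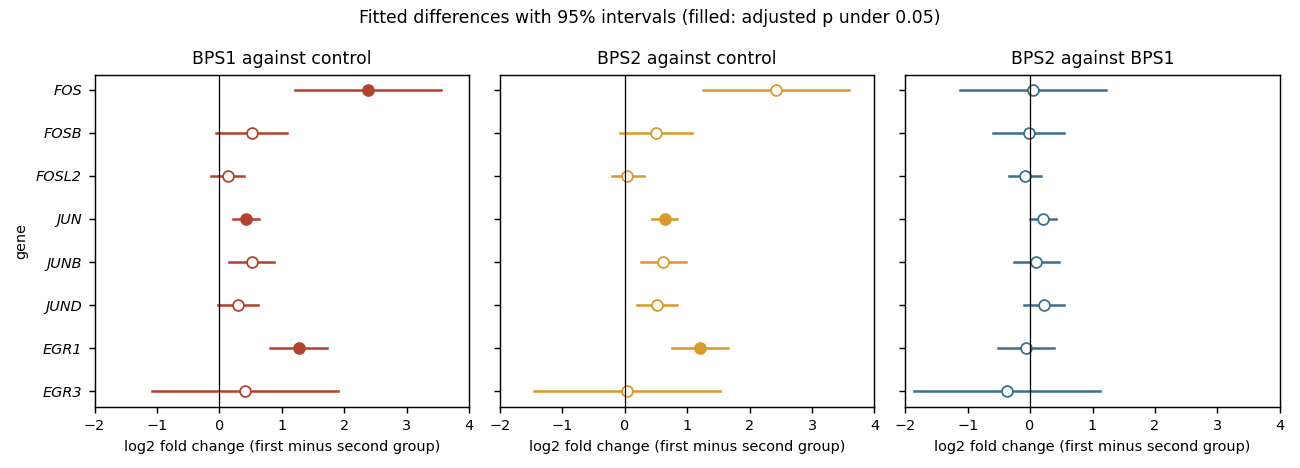
Log2 fold change (horizontal axis, first group minus second) with its 95% interval for the 8 members tested, in panels for BPS1 and BPS2 each against control (left, middle) and for BPS2 against BPS1 (right); filled points have a limma adjusted p under 0.05. FOS has the largest differences with wide intervals, JUN small differences with narrow ones, and every interval of BPS2 against BPS1 reaches 0.

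Between the oligonucleotides no member passed the test. In BPS2 against BPS1 limma called none of the 8 members, where 3.93% of all genes tested were called, 2.3% as higher and 1.63% as lower, and none had an unadjusted p under 0.05. The difference was 0.04 for FOS, with a 95% interval of −1.13 to 1.21, and −0.06 for EGR1, with an interval of −0.52 to 0.39. JUN came closest, at 0.20 with an interval of −0.00 to 0.41 (limma adjusted p = 0.299). Without BPS1 replicate 4 JUN and JUND were called higher with BPS2, by 0.31 (adjusted p = 0.0106) and 0.40 (adjusted p = 0.0126). The 2 oligonucleotides differed in NEAT1 in the same libraries, which was 1.10 higher with BPS2 than with BPS1 on the log2 scale (limma adjusted p = 0.000567). Both comparisons with control use the same 4 control libraries.

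Scaled by length, the Jun genes were the most abundant members in every group. In control the normalized count per kb of the longest transcript was 657 ± 44.0 for JUND, 260 ± 7.84 for JUN, 219 ± 12.3 for JUNB and 152 ± 17.1 for FOSL2 (SD, n = 4), and these 4 did not overlap. FOS followed at 43.3 ± 46.9 per kb, then EGR1 at 21.1 ± 4.46 and FOSB at 12.9 ± 4.21, and each of these neighbours overlapped. FOSL1 at 3.8 per kb, EGR3 at 3.26 and EGR2 at 0.911 also overlapped. With either oligonucleotide FOS stood next after the 3 Jun genes, at 168 ± 52.9 per kb with BPS1 and 182 ± 82.9 with BPS2. FOSL2, its neighbour there, was at 165 ± 9.99 and 158 ± 29.2 per kb, within the spread of FOS. Where a gene has several transcripts, as the 10 in release 29 of GENCODE for FOS, the longest is only an approximate length.

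**Figure D3:**
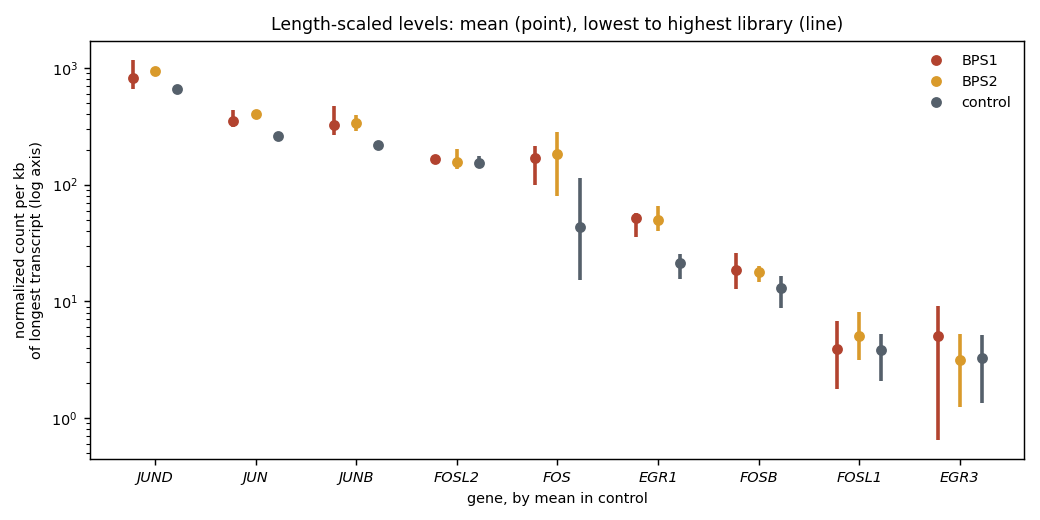
Normalized count per kb of the longest transcript (vertical log axis) for 9 members, ordered by their control mean, with the mean of each group as a point and its lowest to highest library as a line (n = 4). EGR2, listed at 0 in some libraries, is not drawn. JUND is highest in every group, and FOS is level with FOSL2 with both oligonucleotides and below it in control.

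BPS2 replicate 3 was the highest BPS2 library for 8 of the 10 members, all but FOSL1 and EGR3, and for 25.0% of all genes tested. BPS2 replicate 1 was the lowest for 5, namely FOS, FOSB and the 3 Jun genes, and for 30.7% of genes tested. Among BPS1 libraries, replicate 1 was the lowest for 6 members, FOS and EGR1 among them, and for 23.3% of genes tested. BPS1 replicate 4 was the highest for 5, the 3 Jun genes with FOSL1 and FOSL2, and for 40.4% of genes tested, so its count of members was near that of genes at large. Control replicate 2, which held the high FOS value, was also the highest control library for FOSL1, FOSL2, EGR2 and EGR3 (18.2% of genes tested), but the lowest for FOSB, JUNB and JUND (16.8%).

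Dimer partners of AP-1 showed a few rises and no falls. Of 11 tested, 3 rose with BPS1 and 2 with BPS2, where 4.29 and 0.821% of all genes rose. ATF3, a stress-induced partner of Jun, averaged 647 ± 69.2 with BPS1, 754 ± 68.5 with BPS2 and 403 ± 44.5 with control (SD, n = 4). It rose by 0.68 ± 0.11 and 0.91 ± 0.11 on the log2 scale (limma adjusted p = 0.00172 and 0.00108). MAFF, a small Maf protein, rose by 0.75 ± 0.15 and 0.86 ± 0.15 (limma adjusted p = 0.00701 and 0.0116). CREB5, a CREB family protein, rose by 1.33 with BPS1 (adjusted p = 0.0244), a call lost in 4 of 12 omissions, with an adjusted p of up to 0.0665 without control replicate 4. The list's median fold change was 0.18 with BPS1 and 0.20 with BPS2, beside 0 over all genes. Neither NAB1 nor NAB2, the EGR co-repressors, was called in either comparison.

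Of 13 upstream transcription factors tested, which include serum response factor and its partners, CREB and MEF2 proteins, 2 rose with BPS1, where 4.29% of all genes did, and none passed with BPS2, where 0.821% did. Without control replicate 1 and BPS1 replicate 4, 2 rose with BPS1 and 3 with BPS2 (CREM, ELK3 and MEF2D), beside 6.34 and 5.63% of all genes. MEF2D, which drives activity-dependent genes in neurons, averaged 1810 ± 193 with BPS1, 1524 ± 93.6 with BPS2 and 1209 ± 148 with control, and rose by 0.58 with BPS1 (limma adjusted p = 0.00369). ELK3, a ternary complex factor, rose by 0.32 with BPS1 (adjusted p = 0.0394), a call lost in 10 of 12 omissions, with an adjusted p of up to 0.109 without BPS1 replicate 2. Of 21 upstream kinases, only MAPK10, the neuronal JNK, rose with BPS1, by 0.54 (adjusted p = 0.0115), and none passed with BPS2. Over all genes 4.29 and 0.821% rose, so the BPS1 count was near that of genes at large. Without control replicate 1 and BPS1 replicate 4, MAPK10 rose and MAPK11 fell with BPS1, and none passed with BPS2. In that fit 6.34% of all genes rose and 7.22% fell with BPS1. RNA levels of kinases say nothing of their activity.

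Some other immediate early genes rose as well. Of 28 tested, 4 rose with BPS1 and 6 with BPS2, where 4.29 and 0.821% of all genes rose. None of the 28 fell in either. The median fold change was 0.16 with BPS1 and 0.33 with BPS2, beside 0 over all genes, and 23 of the 28 were above 0 in each, beside 50.0% and 50.6% of all genes. SGK1, a serum- and glucocorticoid-induced kinase, averaged 97.3 ± 16.3 with BPS1, 88.2 ± 12 with BPS2 and 49.5 ± 13.4 with control (SD, n = 4), and rose by 0.98 and 0.84 (limma adjusted p = 0.00567 and 0.0465). NR4A1, an orphan nuclear receptor, averaged 1402 ± 214, 1422 ± 221 and 934 ± 57.3 in the same groups, and rose by 0.58 and 0.60 (adjusted p = 0.0134 and 0.0399). DUSP5, a phosphatase of nuclear ERK, rose by 0.63 and 0.73 (adjusted p = 0.0277 and 0.0456), and its BPS1 call was lost in 5 of 12 omissions, with an adjusted p of up to 0.0815 without control replicate 2. CSRNP1 rose by 0.50 with BPS1 (adjusted p = 0.0131; 0.0581 in a fit of BPS1 and control alone).

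IER3, ZFP36 and NPAS4 passed with BPS2. IER3 averaged 39.1 ± 7.68 with BPS2 and 14.7 ± 1.45 with control, and rose by 1.33 (limma adjusted p = 0.0153). ZFP36, which speeds decay of messages with AU-rich ends such as FOS, averaged 141 ± 12.9 with BPS2, 81.8 ± 19.9 with BPS1 and 72.1 ± 10.2 with control. It rose by 0.96 over control (adjusted p = 0.0158) and by 0.80 over BPS1 (adjusted p = 0.0196). The call over BPS1 was lost in 5 of 12 omissions, with an adjusted p of up to 0.0691 without BPS2 replicate 3. NPAS4, a factor induced by calcium entry in neurons, averaged 106 ± 26.9 with BPS2, 85.6 ± 37.7 with BPS1 and 40.5 ± 15.5 with control. It rose by 1.39 with BPS2 (adjusted p = 0.0453), its difference with BPS1 was 1.04 (adjusted p = 0.0505), and BPS2 minus BPS1 was 0.35 (adjusted p = 0.629). Single omissions ended each of these calls over control with BPS2, and that of NR4A1. The calls were lost in 4 of 12 omissions for IER3, 4 for ZFP36, 9 for NR4A1 and 10 for NPAS4. The highest adjusted p was 0.0637 for IER3, 0.0696 for ZFP36 and 0.135 for NR4A1, all without BPS2 replicate 3. For NPAS4 it was 0.153 without BPS2 replicate 4. The BPS2 calls of SGK1 and DUSP5 were lost in 10 and 9 of 12 omissions. Their adjusted p was up to 0.16 without BPS2 replicate 4 and up to 0.148 without BPS2 replicate 3. Without control replicate 1 and BPS1 replicate 4 the list had 7 rises and 1 fall with BPS1 and 12 rises and 1 fall with BPS2. In that fit 6.34 and 5.63% of all genes rose, and 7.22 and 3.71% fell. ARC and BTG2, also classical early genes, did not pass (BPS1 −0.32 and −0.20, BPS2 0.35 and −0.04).

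**Figure D4:**
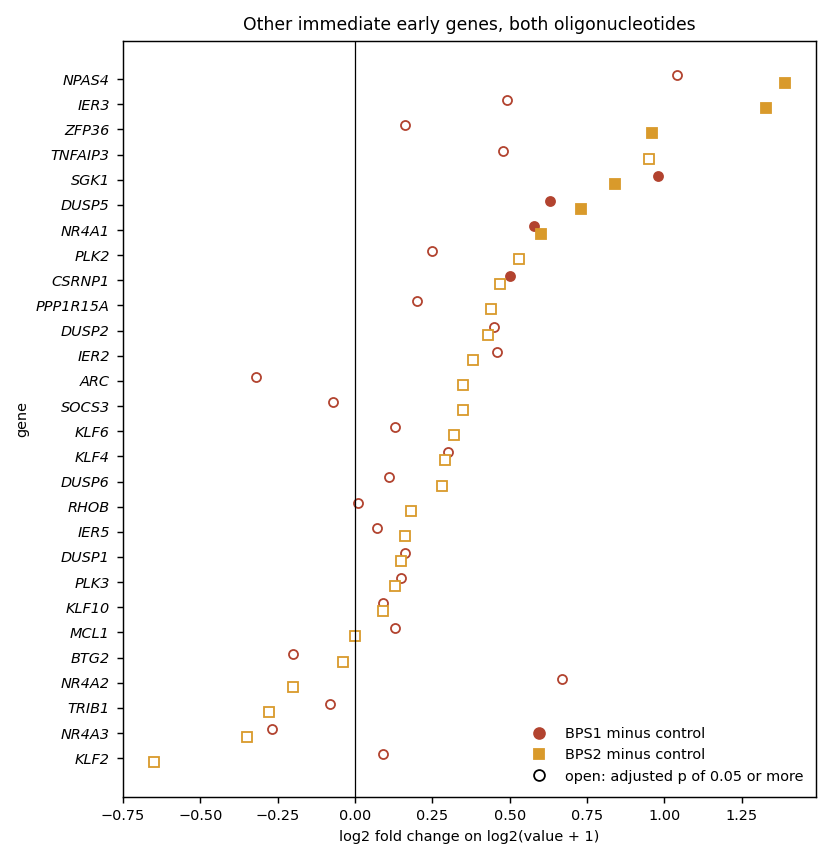
Log2 fold change (horizontal axis) of 28 other immediate early genes with BPS1 (circles) and BPS2 (squares) against control, ordered by the BPS2 value; filled points have a limma adjusted p under 0.05. Filled points lie to the right of 0 for both oligonucleotides, 4 with BPS1 and 6 with BPS2, and the other genes spread on both sides.

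Of 9 known AP-1 target genes tested, 1 rose and 1 fell with BPS1, and 2 rose with BPS2, where 4.29 and 0.821% of all genes rose. Their median log2 fold change was 0.33 with BPS1 and 0.43 with BPS2, beside 0.00 over all genes, and 7 of 9 were above 0 in each comparison. Without control replicate 1 and BPS1 replicate 4, 3 rose and 1 fell with BPS1 and 4 rose with BPS2, beside 6.34 and 5.63% of all genes higher. VEGFA, an angiogenic factor, rose by 0.34 with BPS1 (limma adjusted p = 0.00621), and CD44, an adhesion receptor, fell to 798 ± 165 with BPS1, against 1271 ± 123 with control (−0.69, adjusted p = 0.0123). CCND1, the G1 cyclin D1, averaged 11735 ± 666 with BPS2 and 7883 ± 1290 with control and rose by 0.59 (adjusted p = 0.0159). HMOX1, heme oxygenase, rose by 0.76 with BPS2 (adjusted p = 0.0258). These 2 calls were lost in 4 and 6 of 12 omissions. Without BPS2 replicate 3 the adjusted p was 0.0698 for CCND1 and 0.102 for HMOX1. The metalloproteases MMP1, MMP3 and MMP10, textbook AP-1 targets in fibroblasts, were under the filter.

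Of 14 EGR targets tested, 1 rose and 1 fell with BPS1, where 4.29% of all genes rose and 4.32% fell. None passed with BPS2, where 0.821% rose and 0.386% fell. The median log2 fold change of the 14 was −0.10 with BPS1 and 0.01 with BPS2, beside 0 over all genes. Of the 14, 6 were above 0 with BPS1 and 7 with BPS2, beside 50.0% and 50.6% of all genes. FN1, fibronectin, rose by 0.54 with BPS1 (limma adjusted p = 0.0265; up to 0.0815 without control replicate 2). IGF2, a growth factor, fell to 34950 ± 323 with BPS1, against 46251 ± 1890 with control (−0.40, limma adjusted p = 0.000289). With quantile scaling the difference was −0.26 (limma adjusted p = 0.161), but that scaling can shrink differences in very abundant genes such as IGF2.

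Markers and RNA composition moved in some of the same libraries. Of 9 genes whose proteins act on AU-rich messages, 4 rose with BPS1 and 2 with BPS2, where 4.29 and 0.821% of all genes rose. The list joins proteins that speed decay, such as ZFP36 and its relatives, with ELAVL proteins, which mostly stabilise such messages. These counts therefore have no single direction for message decay. ZFP36L1 rose with both, by 0.92 and 1.00 (limma adjusted p = 0.0132 and 0.0301). Its BPS2 call was lost in 8 of 12 omissions, with an adjusted p of up to 0.0974 without control replicate 2. The BPS1 calls of ELAVL3, ELAVL4 and ZFP36L2 were lost in 6, 3 and 11 of 12 omissions, with an adjusted p of up to 0.0646 without BPS1 replicate 1, 0.056 without BPS1 replicate 2 and 0.101 without control replicate 2. Of 13 mitochondrially encoded genes 6 fell with BPS1 and 2 with BPS2, where 4.32 and 0.386% of all genes fell. The 13 made up 6.46 to 6.83% of all counts with BPS1, 7.1 to 7.38% with BPS2 and 7.07 to 7.99% with control. Quantile scaling ended 4 of these BPS1 calls, with MT-ATP8 at −0.16, MT-ND5 at −0.02, MT-ND1 at 0.03 and MT-CO1 at 0.00 (adjusted p = 0.369, 0.956, 0.692 and 1.0), and the BPS2 call of MT-ND5 (−0.35, adjusted p = 0.182). That scaling gives each rank the same value in every library, which can shrink differences in the most abundant genes. MT-CO2 and MT-ND6 kept their BPS1 calls under it, and MT-ND6 kept its BPS2 call. The losses alone do not decide whether the other falls hold. Single omissions ended the BPS1 calls of MT-CO1, MT-ND1 and MT-ND5 in 10, 6 and 2 of 12 cases, and the BPS2 call of MT-ND6 in 9. Of the 7 adrenergic markers 3 fell with BPS1 and 1 with BPS2, where 4.32 and 0.386% of all genes fell. Without control replicate 1 and BPS1 replicate 4, 5 fell with BPS1, and 3 fell and 1 rose with BPS2. In that fit 7.22 and 3.71% of all genes fell, and 5.63% rose with BPS2. HAND2, a sympathetic lineage factor, fell with BPS1 (−0.56 on the log2 scale, limma adjusted p = 0.000208), as did DBH (−0.36, adjusted p = 0.00793). ISL1 fell with BPS1 (−0.30, adjusted p = 0.0111) and with BPS2 (−0.33, adjusted p = 0.0228). The BPS2 call of ISL1 was lost in 6 of 12 omissions. Fibroblast markers summed to 2095 to 2999 with BPS1, 2391 to 2731 with BPS2 and 2060 to 2288 with control, and 1 of 6, COL1A1, rose with BPS2. Epithelial and endothelial markers summed to 212 to 323 with BPS1, 169 to 225 with BPS2 and 177 to 231 with control. None of the 5 epithelial and endothelial markers tested, and not the 1 leukocyte marker tested, was called in either comparison with control. The part of these shifts in the FOS, JUN and EGR1 results was not tested.

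By deviation from the control mean, the genes nearest to EGR1 over the 12 libraries were VGF, SCG2, ISLR, SAT1 and ETV4. Likeness was the root-mean-square difference between log2 deviations from the control mean, over 13973 genes with a mean of at least 50. It was 0.235 for VGF and 0.277 for SCG2, both secretory granule proteins of neuroendocrine cells, and 0.304 for ETV4, against a median of 1.06 over all candidates. VGF differed by 1.41 with BPS1 and 1.15 with BPS2 from control, and SCG2 by 1.07 and 1.00. The measure favours genes with group differences like those of EGR1, so these values follow from the choice. Those nearest to JUN were FAM222A, SMN2, EIF4A2, RFLNB and RHOC, at 0.083 to 0.122, against a median of 0.488. SMN2 shares most of its sequence with SMN1, so its reads are uncertain. Likeness was scored on the same libraries and carries no test.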

How the data were processed

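Total RNA of 12 libraries was depleted of ribosomal RNA, made into stranded libraries and read as single 100-base reads, per the labels' protocols. Per the submitters' processing notes the authors used FastQC 0.11.7, Salmon 0.8.2, DESeq2 and GRCh38 (a DESeq2 version, an annotation release and a strand setting: not given in the sources used here). As for units, the authors' deposited signal is a normalized count for each gene in each library. Columns were matched by sample title: BPS2 columns carry the title's name while the description says KPAS, and BPS1 replicate 3 is spelled BSP1.

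Normalized counts are not read counts, so limma 3.58.1 (R 4.3.3; lmFit, eBayes with trend) was run on log2(value + 1) with group as the only term, all 12 libraries, genes of at least 10 in at least 4 libraries, and two-sided Benjamini-Hochberg adjustment over 20454 genes. Log2 differences understate the change of low genes. For single genes, all 70 arrangements of 4 against 4 were run as an exact permutation test, two-sided. The value of 1 read in a library (0.94 to 1.09) was read from genes with 1 transcript; rows were called whole within 0.01 of a read, and 3 members were. Levels per kb used the longest transcript in GENCODE release 29, which held 53405 of the 55771 identifiers. Promoters are RefSeq's. The fit was tested on simulated data.

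The members and lists were chosen with earlier results of these data known. One gene of the list of dimer partners and one marker are not reported here and are in no count or sum of their lists. Named genes are all members, NEAT1, up to 4 passing genes per list and comparison with the smallest p, and the 5 nearest to EGR1 and JUN. DUSP5 and SGK1 with BPS2, ZFP36 in BPS2 against BPS1, and ARC, BTG2, NAB1, NAB2 and the metalloproteases were named outside that rule, after their values were seen. The settings varied were the pseudocount (0.5, 5), the filter (none, 50), the scaling (quantile, median of ratios), a replicate block, fits of 2 groups, library weights, robust variance, a GC trend correction, and omission of each library and of control replicate 1 with BPS1 replicate 4.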

Additional observations from a re-analysis of the deposited data

Results flagged for a closer look

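In 7 of 30 groups of 4 libraries, 10 members in 3 groups each, 1 library lay far from the other 3 by Dixon's ratio of gap to range; chance gives about 1 in 20. BPS1 replicate 4 was the high one in 4 of them: 1209 for FOSL2 (others 1066 to 1086), 1542 for JUN (1114 to 1186), 865 for JUNB (489 to 507) and 2200 for JUND (1242 to 1375). These are not independent, since they come from 1 library, the one that stood apart over all genes.

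FOS in control replicate 2 was 245, against 32.9 to 51.7 in the other control libraries. EGR1 in BPS1 replicate 1 was low, at 113, against 177 to 179 in the other BPS1 libraries, and still exceeded every control library. EGR2 in BPS2 replicate 3 was 4.62, against 0 to 0.64 in the other BPS2 libraries, a difference of a few reads. The causes were not tested.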

How the results depend on the processing

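Replicate numbers did not pair the libraries: the deviations of 12 same-numbered pairs correlated at −0.272 to 0.103, and only 1 pair was over 0.1. In 1 of 12 comparisons of a library with another group, the best correlation was with its own number. With the replicate block 1067 genes passed for BPS1, 118 for BPS2 and 447 for BPS2 against BPS1, against 1760, 247 and 803 without it, and no call changed among FOS, JUN, EGR1 and the other members. Among list genes the block ended 7 of 27 BPS1 calls (ELK3, DUSP5, ELAVL3, ELAVL4, ZFP36L2, MT-ND1 and MT-CO1, adjusted p = 0.061 to 0.124), 11 of 15 BPS2 calls (MAFF, IER3, NR4A1, NPAS4, CCND1, HMOX1, ZFP36L1, SGK1, DUSP5, MT-ND6 and ISL1, 0.0559 to 0.135) and 7 of 10 for BPS2 against BPS1 (0.0667 to 0.147). Fitting only the groups compared ended 11, 3 and 5 of the same calls. Quantile scaling ended 6, 1 and 4, with MT-ND1 (0.03) and MT-CO1 (0.00) near 0 with BPS1. That scaling can shrink differences in the most abundant genes, though MT-CO2 kept its BPS1 call. Library weights gave 3382, 1296 and 3626 genes, and leaving out control replicate 1 with BPS1 replicate 4 gave 2774, 1910 and 3499. Fitting BPS1 and control alone gave 907. Single omissions gave 1102 to 2372, 114 to 536 and 477 to 1764.

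With BPS1, library weights called FOSB (0.79) and JUNB (0.38), the GC correction called JUNB (0.43), and the fit of 2 groups did not call JUN (0.43). With BPS2, FOS was called at a minimum of 50 (2.42), with weights (2.21), with the GC correction (2.41) and without the 2 libraries (2.31). JUNB and JUND were called with 2 groups (0.62 and 0.52), weights (0.67 and 0.56), the GC correction (0.55 and 0.41) and without the 2 libraries (0.64 and 0.55). FOSL2 changed sign with weights (−0.02) and without the 2 libraries (−0.00), as did EGR3 (−0.13 and −0.27). BPS2 against BPS1 was called for JUN (0.31 and 0.31) and JUND (0.38 and 0.40) under those same settings. The causes were not tested.

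Single omissions ranged, with BPS1, from 2.05 to 3.00 for FOS, −0.32 to 0.23 for FOSL1, −0.69 to 0.34 for EGR2 and 0.00 to 1.14 for EGR3. With BPS2 they ranged from 2.09 to 3.05 for FOS, −0.08 to 0.11 for FOSL2, 0.54 to 0.69 for JUNB, 0.47 to 0.56 for JUND, 1.06 to 1.31 for EGR1 and −0.27 to 0.40 for EGR3. For BPS2 against BPS1 they ranged from −0.21 to 0.39 for FOS, −0.18 to 0.16 for FOSB, 0.15 to 0.31 for JUN, 0.13 to 0.40 for JUND, −0.23 to 0.03 for EGR1 and −1.09 to 0.04 for EGR3. FOSL1 and EGR2 were recomputed under fewer alternatives. FOSL1 and EGR2 were under the filter on low values.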
